A study of Mus musculus with 6 samples.

Results

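The ETS and C/EBP transcription factors that build and run myeloid cells were followed in neutrophils from infected mouse corneas. They comprise 9 of the 54838 genes in the count tables: the ETS genes Ets1, Ets2, Spi1, Fli1 and Elf1, and the C/EBP genes Cebpa, Cebpb, Cebpd and Cebpe. Symbols were matched to Ensembl identifiers through GENCODE M21, where all 9 had 1 entry, and all 9 passed the expression filter. Ets1 was chosen by its CPM in these same libraries, lower in the knockout than in wild type, so its values are a description and carry no test. The other 8 were listed as relatives of Ets1 or as myeloid lineage factors.

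RNA was sequenced from neutrophils isolated by flow cytometry from corneas infected with PAO1, a laboratory strain of Pseudomonas aeruginosa, 24 h after infection. The mice were wild type (WT) or IL1a -/-, lacking the gene of the inflammatory cytokine IL-1 alpha (knockout below), with 3 libraries per genotype. Both genotypes were infected, and no uninfected cornea was analysed here. The labels and notes read here do not state the strain background, the age or whether corneas were pooled. The labels number biological replicates without naming animals, so p-values measure the spread between these libraries.

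Libraries held 22855676 to 33626008 gene counts. Il1a was at 5116 to 8776 CPM (read counts scaled to library size, with TMM factors) in wild-type libraries and at 2.89 to 5.37 CPM in knockout libraries, as labelled. The neutrophil markers S100a9 and S100a8 were at 12571 to 15660 and 9113 to 11540 CPM in all 6 libraries. Knockout replicate 2 lay at 67.3 on the first principal component, against -32.9 to 2.10 for the others.

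ETS proteins share a DNA-binding domain that reads a GGAA core. Spi1 encodes PU.1, the factor that commits blood progenitors to myeloid fates, while Ets1 is best known from lymphocytes and endothelium. C/EBP proteins are leucine zipper factors that bind DNA as dimers. In the bone marrow Cebpa acts early in granulocyte formation, Cebpe later drives specific granule genes, and Cebpb and Cebpd act in emergency granulopoiesis and inflammation.

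Levels of the 9 genes spanned about 3 orders of magnitude. For comparison between genes, CPM were divided by the summed length of each gene's exons in kilobases (CPM per kb). Cebpb stood highest, at 2427 ± 169 CPM per kb (SD over all 6 libraries, n = 6), followed by Ets2 at 299.9 ± 19.0. Spi1 came next at 139.8 ± 20.3 CPM per kb, and Cebpd was at 23.5 ± 6.6. These 4 kept this order in 6 of 6 libraries. Below them lay Elf1 at 9.47 ± 0.95, Fli1 at 7.15 ± 1.32 and Ets1 at 5.89 ± 1.57 CPM per kb. Elf1 was above Fli1 in 6 of 6 libraries, by a ratio of 1.15 to 1.74, whereas the order of Fli1 and Ets1 depended on the genotype. Fli1 was above Ets1 in 3 of 3 knockout libraries (means of 6.94 and 4.49 CPM per kb) but in 1 of 3 wild-type libraries (7.36 and 7.29), where the ratio of Ets1 to Fli1 was 0.752, 1.08 and 1.25. The SD of Ets1 over all 6 libraries includes the difference between genotypes that chose it. With the longest transcript as the length, Ets1 (9.82) stood above Fli1 (7.51). Cebpe at 3.59 ± 0.58 and Cebpa at 2.28 ± 0.55 CPM per kb closed the order, the former higher in 6 of 6 libraries by a ratio of 1.10 to 2.03.

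Within the whole ETS family of 27 genes, Ets2 and Spi1 ranked 1 and 2 and made up 58.5% and 27.2% of the family's summed CPM per kb. Ets1 ranked 8, with 1.14%. Elf4, which is no member here, ranked 3 at 11.0 CPM per kb. Elf5, Etv2 and Fev had 0 counts in all 6 libraries. Of the 4 C/EBP members' summed CPM per kb, Cebpb contributed between 98.2% and 99.1% in every library.

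The level of Cebpb depends on how reads shared with a neighbour are counted. Cebpb (ENSMUSG00000056501) shares 312 of its 1504 exon bases with Tmem189 on the opposite strand, and reads falling in both genes are absent from the unstranded count. The sum of the 2 strand columns was 141546 to 220128 counts for Cebpb, against 82101 to 127419 unstranded. The kit does not mark strand, so the shared reads cannot be assigned to either gene, and the sum adds them to both: in wild-type replicate 1 Tmem189 went from 5752 to 70948 counts. The left-out share of 42.0% to 42.9% for Cebpb is therefore an upper limit, as are the 3860.4 to 4712 CPM per kb that the sum gives. For Elf1, which overlaps Wbp4, at most 8.23% to 10.9% of reads were left out this way, and for Cebpd, which overlaps Spidr, at most 5.82% to 10.5%. For Ets1 and Fli1 the share was 0.

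Promoter sequences of Cebpb and Cebpa are shown because these are the most and the least abundant of the 9 genes per kb. Each run is the 250 bases before the start of transcription, 5′ to 3′ on the plus strand, from RefSeq on GRCm38.p6, at chr2:167688665-167688914 for Cebpb and chr7:35119043-35119292 for Cebpa. Capitals mark matches to the ETS core GGAA and to the CREB half-site TGACG on either strand.
Cebpb: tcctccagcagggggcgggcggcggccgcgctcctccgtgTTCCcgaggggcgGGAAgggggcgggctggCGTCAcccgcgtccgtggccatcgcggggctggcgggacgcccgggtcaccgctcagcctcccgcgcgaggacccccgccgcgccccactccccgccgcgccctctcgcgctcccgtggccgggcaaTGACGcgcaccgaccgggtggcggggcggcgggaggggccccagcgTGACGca
Cebpa: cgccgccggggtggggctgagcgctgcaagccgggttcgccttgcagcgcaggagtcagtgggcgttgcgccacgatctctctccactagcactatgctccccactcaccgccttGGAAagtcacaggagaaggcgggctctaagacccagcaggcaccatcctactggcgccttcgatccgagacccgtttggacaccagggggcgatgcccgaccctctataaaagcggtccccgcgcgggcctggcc

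The Cebpb stretch held 3 CREB half-sites, beginning 180, 53 and 7 bases before the start, and the Cebpa stretch held 0. Of 32817 promoter entries, 17.7% held this motif at least once. The ETS core was matched at 2 places in Cebpb and 1 in Cebpa, and 93.4% of all entries held it. The C/EBP motif TTGCNNAA, searched on both strands, had 0 matches in either and was in 9.6% of all entries. None of these motifs overlap here, and a match is only a match of letters. Promoter entries were matched for 4 of the 9 members, the others being Elf1 and Ets2.

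**Figure D1:**
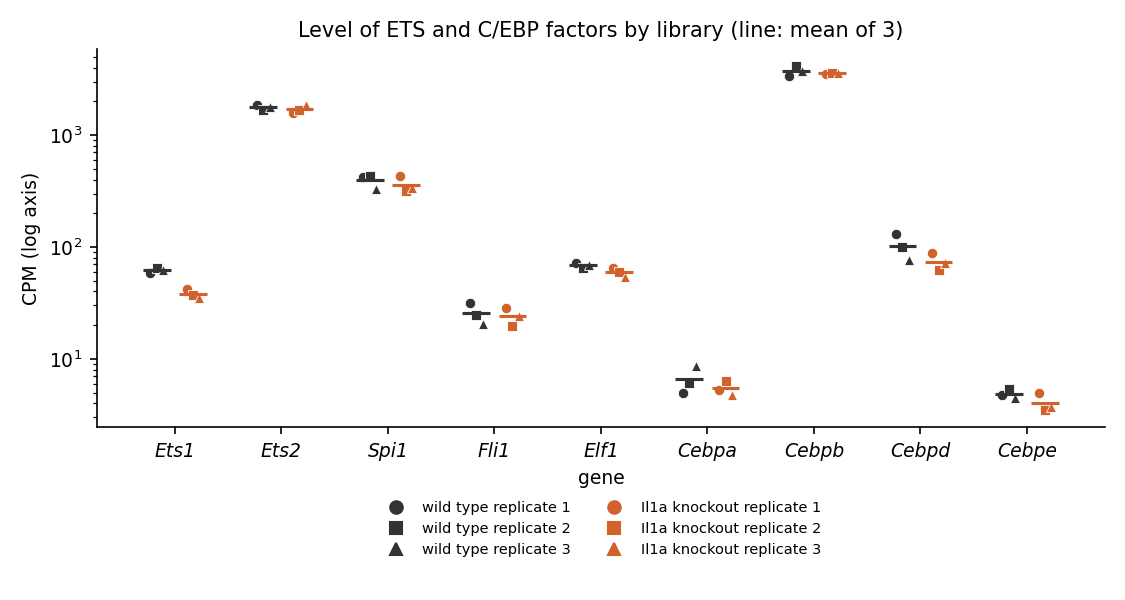
CPM (log axis) of the 9 genes in each library, with circles, squares and triangles for replicates 1, 2 and 3, wild type in dark grey, Il1a knockout in orange, and a line at each group's mean. Cebpb lies highest, at 3366 to 4102 CPM, Cebpe lowest, at 3.48 to 5.38 CPM, and Ets1 is the gene whose 3 knockout points all lie under its 3 wild-type points.

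Ets1 (ENSMUSG00000032035, GRCm38 chromosome 9, 32636221 to 32757820, plus strand) was at 58.2, 64.5 and 62.6 CPM in wild-type replicates 1, 2 and 3, and at 42.0, 37.0 and 35.2 CPM in knockout libraries replicates. The groups did not overlap, and the highest knockout library stayed under the lowest wild-type one. These levels rest on 1554 to 2004 counts per wild-type library and 805 to 1336 per knockout library. The mean went from 61.8 ± 3.3 to 38.0 ± 3.5 CPM (SD, n = 3 each), 38.4% lower, a fitted log2 fold change of -0.70. This difference is what chose the gene. Over 15 other settings, of which 6 leave out a library, the fitted value lay between -0.78 and -0.64. Without knockout replicate 2 it was -0.69. Among all 11924 tested genes, 5.48% had all 3 knockout libraries below all 3 wild-type libraries, and nothing is read from Ets1 being among them. In bulk RNA, fewer cells of a type and less RNA per cell cannot be told apart. A gene count also does not show which of the 6 annotated Ets1 transcripts the reads come from.

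Set against its relatives inside each library, where scaling cancels, Ets1 was lower as well. Its ratio to Ets2, per kb, was 0.0239 ± 0.0024 in wild-type libraries and 0.0154 ± 0.0027 in the knockout (SD, n = 3 each). Wild-type ratios to Elf1 were 0.650, 0.796 and 0.716, and those of the knockout were 0.518, 0.496 and 0.517, with no overlap. The ratio to Fli1 did overlap, since wild-type replicate 1 was at 0.752 and knockout replicate 2 at 0.769. Fli1 and Ets1 are neighbours on chromosome 9, transcribed away from each other, with 93359 bases between them. These ratios use the same Ets1 values that chose the gene, so they too are a description.

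Markers were read for cells in which Ets1 is prominent. Those of T and NK cells and of B cells were scarce in all libraries, as were endothelial markers other than Pecam1. Stromal markers were less so. Of 16 T and NK cell markers, 6 had 0 counts in every library, among them Cd3e, a chain of the T cell receptor complex, and the list summed to 2.44 to 2.64 CPM in wild-type libraries and 0.974 to 4.72 CPM in knockout libraries. Only 3 of the 16 were tested, with 0 called and a median log2 fold change of 0.61. Cd3d was at 1.22 ± 0.17 and 0.63 ± 0.13 CPM, Trac at 0.31 ± 0.14 and 0.48 ± 0.23 CPM, and Il7r at 0.32 ± 0.26 and 1.61 ± 1.30 CPM (SD, n = 3 each; edgeR adjusted p = 0.87, 0.97 and 0.79). Ets1 itself was at 35.2 to 64.5 CPM over all 6 libraries, and its level within T and NK cells was not measured. The 9 B cell markers summed to 6.24 to 11.7 CPM in wild-type libraries and 7.43 to 10.8 CPM in knockout libraries, nearly all of it Ighm, the immunoglobulin mu gene, at 8.82 ± 2.695 and 8.26 ± 1.92 CPM. Cd79b, Pax5 and Mzb1 had 0 counts in all 6 libraries, and Cd79a was at 0.091 and 0.24 CPM on average. The 10 endothelial markers summed to 39.2 to 46.8 CPM in wild-type libraries and 36.7 to 45.0 CPM in knockout libraries. Of these 10, 9 had a mean under 1 CPM. The exception was Pecam1, which neutrophils express too, at 39.8 ± 3.0 and 37.2 ± 8.2 CPM. Stromal markers summed to 21.3 to 45.8 CPM in wild-type libraries and 15.5 to 47.6 CPM in knockout libraries, and Thy1 was at 0 throughout. Whether any of these cells take part in the Ets1 difference was not tested.

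None of the other 8 members passed the test over all genes (edgeR quasi-likelihood test, Benjamini-Hochberg adjusted p from 0.82 to 0.99). Over all 11924 tested genes, 0.101% passed (0.0755% higher and 0.0252% lower in the knockout), and 5.99% had an unadjusted p under 0.05, as did 1 of the 8, Cebpd. Neither did the wild-type and knockout values separate for any of the 8, while groups did not overlap for 11.6% of all tested genes. DESeq2 and limma-voom also called 0 of the 8. All 8 had a fitted log2 fold change below 0, with a median of -0.17, beside 49.3% below 0 and a median of 0.0045 over all tested genes. A change of 1.5-fold up or down fell outside the 95% interval for 5 of the 8, namely Ets2, Spi1, Fli1, Elf1 and Cebpb. The intervals of Cebpa, Cebpd and Cebpe ran past a 1.5-fold lower level.

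Ets2, the closest relative of Ets1 and a factor activated through Ras and MAP kinases, was at 1858, 1686 and 1768 CPM in wild-type libraries and 1564, 1687 and 1837 CPM in knockout libraries. The groups overlapped fully, and the lowest and the second highest values both came from the knockout. Its log2 fold change was -0.06, with a 95% interval from -0.30 to 0.18.

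Spi1 was at 418, 434 and 331 CPM in wild-type libraries and 427, 316 and 335 CPM in knockout libraries. Each genotype thus held both low and high libraries, with 1 low one in wild type and 2 in the knockout. The log2 fold change was -0.14 (95% interval -0.47 to 0.20). Spi1 lies on chromosome 2 like Il1a, 38.2 Mb away, and Cebpb lies 38.4 Mb away on the other side.

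Fli1, a factor of blood stem cells and megakaryocytes, was at 31.8, 24.6 and 20.6 CPM in wild-type libraries and 28.5, 19.8 and 24.4 CPM in knockout libraries. The spread within each genotype exceeded the difference between their means of 25.7 and 24.2 CPM. Its log2 fold change of -0.08 (95% interval -0.52 to 0.36) turned to 0.08 without wild-type replicate 1 and to 0.04 without knockout replicate 2. Elf1, an ETS factor of blood and endothelial cells, was at 71.1, 64.4 and 69.5 CPM in wild-type libraries and 64.5, 59.2 and 54.0 CPM in knockout libraries. Only knockout replicate 1 reached the wild-type range, level with wild-type replicate 2 (log2 fold change -0.21, 95% interval -0.48 to 0.07).

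Among the C/EBP genes, Cebpb was at 3366, 4102 and 3759 CPM in wild-type libraries and 3534, 3557 and 3586 CPM in knockout libraries. The knockout libraries lay inside the wild-type range. The log2 fold change was -0.07 (95% interval -0.31 to 0.17), so a difference of 1.5-fold lay outside the interval in either direction. Tmem189, the gene that overlaps Cebpb, was at 240.4 ± 22.0 and 241.9 ± 8.8 CPM, again without the shared reads.

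Cebpd, an acute-phase factor, was at 130.2, 100.7 and 76.0 CPM in wild-type libraries and 87.7, 61.6 and 72.1 CPM in knockout libraries. Knockout replicate 1 stood above wild-type replicate 3, so the groups overlapped. Of the 8 tested members it had the lowest p (edgeR quasi-likelihood test, unadjusted p = 0.0394, adjusted p = 0.82), with a mean 27.8% lower in the knockout and a log2 fold change of -0.47 (95% interval -0.91 to -0.03). With 1 library left out the log2 fold change ran from -0.65, without wild-type replicate 3, to -0.27, without wild-type replicate 1, and was -0.62 without knockout replicate 1. Its adjusted p ranged from 0.165 to 1 over the 15 other settings.

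Cebpa and Cebpe, which act earlier in granulocyte formation, were the lowest members. Cebpa was at 4.94, 6.12 and 8.68 CPM in wild-type libraries and 5.28, 6.35 and 4.76 CPM in knockout libraries, from 109 to 270 counts per library. Wild-type replicate 3 stood above the other 5. Cebpe was at 4.72, 5.38 and 4.50 CPM in wild-type libraries and 4.90, 3.48 and 3.71 CPM in knockout libraries, from 85 to 167 counts. Here knockout replicates 2 and 3 lay under all wild-type libraries, and knockout replicate 1 within their range. The 95% intervals of the log2 fold change ran from -0.86 to 0.32 for Cebpa and from -0.84 to 0.30 for Cebpe. These were the widest intervals of the 8.

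**Figure D2:**
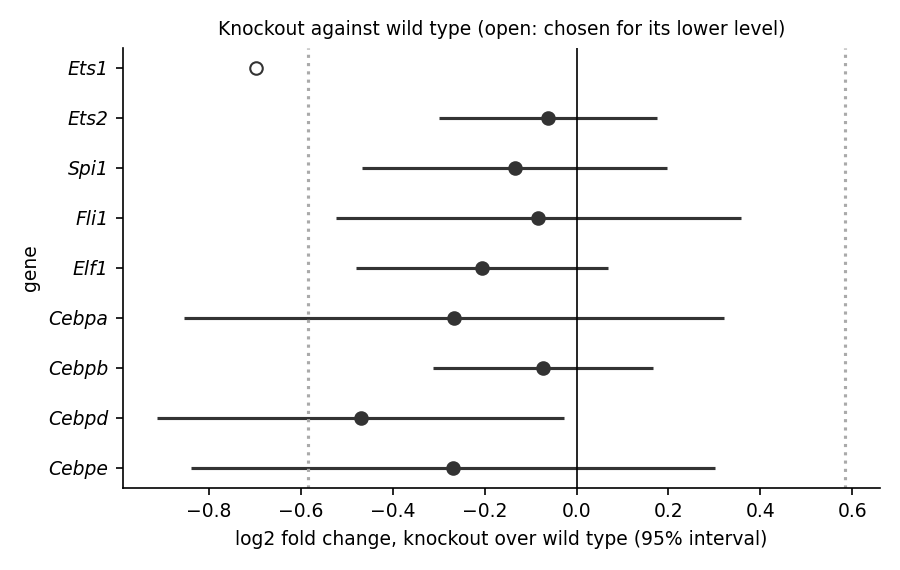
Log2 fold change, knockout over wild type, of the 9 genes, with 95% intervals from edgeR for the 8 tested members and dotted lines at a 1.5-fold change. Ets1 (open circle, no interval) was chosen for its lower level; the intervals of Ets2, Spi1, Fli1, Elf1 and Cebpb stay between the dotted lines, and that of Cebpd runs from -0.91 to -0.03.

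The members varied unequally between libraries of 1 genotype. The SD of log2 CPM within genotypes was 0.11 for Ets1, 0.10 for Ets2, 0.10 for Elf1 and 0.10 for Cebpb, each below the median of tested genes within 0.5 log2 units of its level (0.18, 0.15, 0.17 and 0.15). For Cebpd the within-genotype SD was 0.33 against a median of 0.16, for Fli1 0.29 against 0.20, and for Spi1 0.22 against 0.15. For Cebpe this SD was 0.20 against 0.35, and for Cebpa 0.32 against 0.32. Fli1, Elf1 and Cebpd were highest in replicate 1 of both genotypes. Knockout replicate 1 was the highest knockout library for 6 of the 9 genes. The labels do not say that a replicate number marks a shared day or litter.

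**Figure D3:**
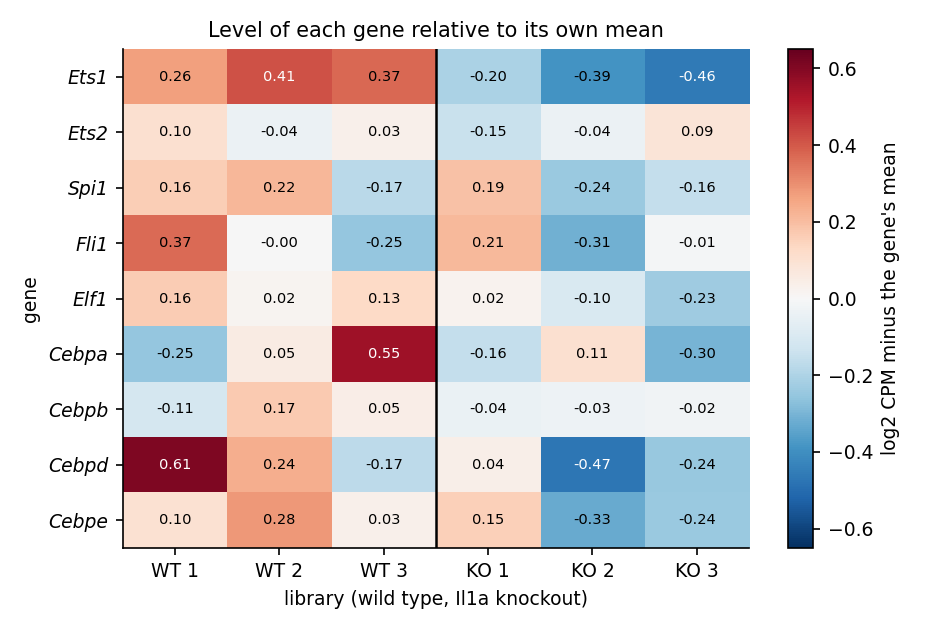
Log2 CPM of each gene minus its own mean over the 6 libraries (colour and number), wild type left and Il1a knockout right of the line. Ets1 is above 0 in the 3 wild-type and below 0 in the 3 knockout libraries; Cebpd spans the widest range, from 0.61 in wild-type replicate 1 to -0.47 in knockout replicate 2.

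The genes whose profile over the 6 libraries was most like that of Ets1 came from outside its family. Likeness was the root mean square difference between log2 CPM profiles, each centred on its mean, among 5655 other genes whose mean reached 5 CPM, for which the median difference was 0.40. Sec31a, a coat protein gene of vesicles leaving the endoplasmic reticulum, was nearest at 0.10 and was at 20.2 ± 2.1 CPM in wild-type libraries and 13.6 ± 0.7 CPM in knockout libraries. Eif3j1, of a translation initiation factor, came second at 0.11, but has a near-identical copy, so its reads are uncertain. Dnajc3, an endoplasmic reticulum cochaperone gene, followed at 0.11, with 25.1 ± 3.1 and 16.7 ± 1.1 CPM. Mgat2, a Golgi glycosylation enzyme gene, was at 0.12 and Rab28, a small GTPase gene, at 0.13. All 5 were lower in the knockout without overlap, which follows from how they were found. Of the members, Cebpe (0.24) and Elf1 (0.26) were nearest to Ets1, with 4.44% and 7.23% of those 5655 genes nearer still, and Fli1 (0.40) was farthest.

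Other genes of the ETS and C/EBP pathways were read from the same fit. Of 131 tested genes in 9 lists, 0 were called (edgeR), and 0 by DESeq2 or limma-voom. An unadjusted p under 0.05 was reached by 18, or 13.7%, beside 5.99% of all tested genes. The median log2 fold change of the 131 was 0.02. Among 22 other ETS genes 14 were tested, 7 above and 7 below 0, with a median of -0.0031. Elk4, a partner of serum response factor, was at 68.4 ± 17.1 and 69.4 ± 9.5 CPM, Elf4 at 72.0 ± 4.3 and 63.8 ± 4.1 CPM, and Etv6, a repressor, at 51.8 ± 7.1 and 56.6 ± 8.4 CPM (SD, n = 3 each). Erg, the ETS gene next to Ets2 on chromosome 16, was named with its values known and stood at 0.93 ± 0.36 and 0.43 ± 0.23 CPM.

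Genes that bind or degrade the members, with the remaining C/EBP genes, gave 0 called of 10 tested and a median of -0.07. Trib1, a pseudokinase that directs C/EBP-alpha to degradation, was abundant at 1029 ± 55 and 938 ± 36 CPM (log2 fold change -0.13). The coactivator genes Crebbp and Ep300 were at 90.5 ± 15.2 and 71.8 ± 7.4 CPM in wild-type libraries and 88.7 ± 16.1 and 67.3 ± 1.9 CPM in knockout libraries. For other myeloid transcription factors 0 of 32 were called, with a median of 0.04. All 3 knockout libraries lay above all 3 wild-type ones for 6 of the 32, and below for 4. The shares over all tested genes were 6.12% and 5.48%. An unadjusted p under 0.05 (edgeR) was reached by 2, or 6.25%, beside 5.99% of all tested genes. These were Rara, at 135 ± 16 and 100 ± 7 CPM, and Stat5a, at 13.8 ± 4.8 and 23.1 ± 4.6 CPM. The AP-1 gene Junb was at 5768 ± 49 and 5309.7 ± 336.4 CPM, the immediate early gene Egr1 at 1637 ± 250 and 1373 ± 275 CPM, and Klf6 at 1194 ± 126 and 1029.9 ± 68.7 CPM. The Ras and MAP kinase list, which acts on ETS proteins by phosphorylation, had 0 of 18 called and a median of 0.02. Its most abundant gene, the MAP kinase phosphatase Dusp1, was at 6625 ± 81 and 6175 ± 511 CPM, followed by Dusp5 at 824 ± 50 and 818 ± 83 CPM and the kinase Map2k1 at 329 ± 59 and 302 ± 39 CPM.

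Target genes of the members moved in neither direction past the test. Of 15 genes listed as C/EBP-epsilon targets or as specific and gelatinase granule genes, 0 were called, with a median of -0.06. In this list the siderophore-binding gene Lcn2 was at 9111 ± 256 and 8849 ± 654 CPM. Fpr1 was at 1999 ± 408 and 1922 ± 212 CPM, and Mmp9 at 1130.3 ± 291.7 and 1035 ± 332 CPM. Of 19 tested PU.1 targets 0 were called, with a median of 0.08. Among them Cd14 was at 32856 ± 4185 and 29075 ± 229 CPM, the G-CSF receptor gene Csf3r at 2315 ± 158 and 2247 ± 186 CPM, and Fcgr3 at 1240.3 ± 105.6 and 1162 ± 54 CPM. C/EBP-alpha targets of promyelocytes were mostly too low to test, with 3 of the 8 matched genes tested and 0 called. These were Csf3r, Lyz2 at 293 ± 7 and 334 ± 36 CPM, and Gfi1 at 1.37 ± 0.21 and 1.38 ± 0.41 CPM. Of 20 tested C/EBP-beta and -delta targets 0 were called, with a median of 0.03, and besides Cd14 the most abundant were Cxcl2 at 24092 ± 1985 and 23092 ± 4535 CPM and Il1b at 22364 ± 1285 and 20217 ± 2390 CPM.

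Of 14 genes known as ETS1 targets in endothelial, stromal or lymphoid cells, 10 were tested and 0 called, with a median log2 fold change of 0.15. Apart from Mmp9 these were low. Mmp3 was at 39.8 ± 29.9 and 26.1 ± 23.5 CPM and Itgb3 at 12.0 ± 1.1 and 11.7 ± 5.2 CPM (SD, n = 3 each).

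**Figure D4:**
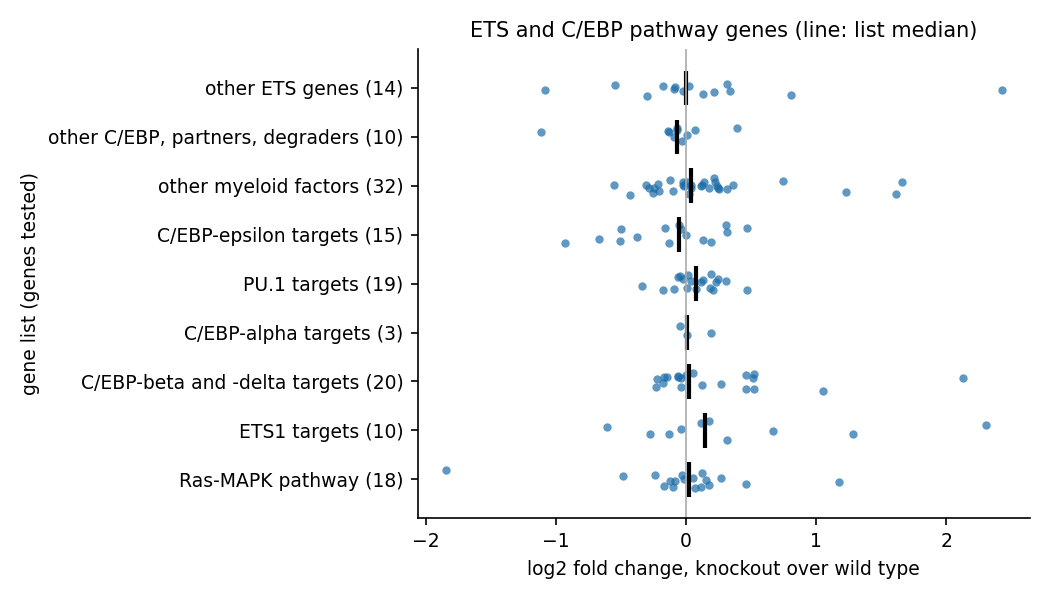
Log2 fold change, knockout over wild type, of each tested gene (point) in the 9 lists of related genes, with a bar at the list's median and the number of tested genes in brackets. Medians lie between -0.07 and 0.15, and none of the points was called over all genes.

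Monocytes and macrophages also express Spi1, Cebpb and most of the PU.1 targets. Their 18 markers summed to 593 to 640 CPM in wild-type libraries and 712 to 742 CPM in knockout libraries, without overlap. Of 15 tested, 13 were above 0, with a median log2 fold change of 1.60, and 0 were called. The 2 below 0 were Lyve1 and Ly6c2. Ly6c2 was at 32.6 ± 0.9 CPM in wild-type libraries and 26.5 ± 4.2 CPM in knockout libraries, without overlap. An unadjusted p under 0.05 (edgeR) was reached by 9 of the 15, beside 5.99% of all tested genes. Of these 9, 8 were higher (C1qa, C1qb, C1qc, Ms4a7, Mrc1, Ccr2, Pf4 and F13a1) and Lyve1 was lower. These were low genes: C1qb was at 0.99 ± 0.26 and 4.81 ± 3.17 CPM and F13a1 at 4.62 ± 1.60 and 16.97 ± 11.59 CPM (edgeR adjusted p = 0.24 and 0.38). In knockout replicates 1, 2 and 3 C1qb was at 2.11, 8.29 and 4.02 CPM and F13a1 at 8.42, 30.2 and 12.3 CPM. The groups of C1qc, Mrc1 and Ccr2 overlapped. Most of the sum came from Cd68, at 308 ± 27 and 348 ± 25 CPM, Csf1r at 178 ± 12 and 206 ± 22 CPM, and Adgre1 at 68.3 ± 13.3 and 79.4 ± 7.1 CPM. Their part in the values of the members was not tested. Neutrophil markers summed to 41911 to 46002 CPM in wild-type libraries and 39529 to 42530 CPM in knockout libraries, and precursor and proliferation markers to 178 to 260 and 155 to 196 CPM. Of 5 precursor and proliferation markers tested, 0 were called: Mki67, Ltf and Camp were above 0 and Ngp and Chil3 below, with a median log2 fold change of 0.31. Corneal epithelial markers summed to 57.0 to 199 CPM in wild-type libraries and 52.5 to 165 CPM in knockout libraries, and dendritic cell markers to 34.5 to 64.5 and 42.2 to 96.8 CPM. Mast cell, basophil and eosinophil markers stayed at 4.47 to 8.83 CPM over all 6 libraries, and erythroid and platelet markers at 7.80 to 51.1 CPM.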

How the data were processed

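For each library the authors deposited raw counts by gene in 3 columns, of which the one that ignores strand was used. Per the submitters' processing notes, tools and builds included FastQC 0.11.9, Trimmomatic 0.39, STAR 2.7.8a, GRCm38 and mm10; the annotation release is not given in the sources used here. Per the labels' protocols, libraries came from an RNeasy Micro and a SMART-Seq v4 kit, which does not mark strand.

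GENCODE M21 matched 54809 of 54838 genes and gave symbols, positions and exon lengths. The edgeR expression filter by group left 11924 genes, with 99.9% of counts. Counts were normalized by TMM and tested in edgeR 4.0.16 (robust quasi-likelihood test, R 4.3.3), knockout against wild type, with Benjamini-Hochberg adjustment over all tested genes and a threshold of 0.05. CPM use TMM-scaled library sizes, and log2 CPM a prior count of 3. The fit was also run on simulated counts, in which libraries differed only by size, set fold changes and random spread. Nothing here rests on its outcome.

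The members and lists were chosen with earlier results of these data known. Named are all members, the 3 most abundant tested genes of each list of related genes, and any called gene. The 5 genes most like Ets1 and the most abundant or defining markers are named too. Further genes were named after their values were seen. Among them are some, but not all, of those with an unadjusted p under 0.05, and those called in other settings. Settings tried were other scalings, no filter, a minimum of 5 CPM in at least 3 libraries, a replicate block, strand columns, limma-voom (3.58.1), DESeq2 1.42.0, each library left out, and transcript length. Figures used matplotlib 3.10.9.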

Additional observations from a re-analysis of the deposited data

How the results depend on the processing

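Over 15 other settings, 0 of the 8 members besides Ets1 were called in any. Ets1 kept its direction in all 15, but it was chosen for its lower level in these same libraries, so nothing is read from this. Fli1 ranged from -0.22 to 0.08 with a library left out, with 0.085 when wild-type replicate 1 was dropped and 0.04 when knockout replicate 2 was; the other 7 stayed below 0. Cebpe was not tested at the filter of 5 CPM. Over all genes, 12 were called in the main test, 185 with no filter, 21 at 5 CPM, 69 by DESeq2 and 7 to 24 with a library left out. Of the related genes, 0 became 6 with no filter (Chil3, Il6, Arg1, Olfm4, Mmp3 and Stat5a) and 0 to 2 with a library left out (Chil3 and Mmp8, without knockout replicate 1). The causes were not tested. The replicate block gave 20 genes and 1 related gene, Arg1. Deviations of same-numbered libraries correlated at 0.14, 0.057 and 0.0034. Wild-type and knockout replicate 1 were each other's best match, but not every library correlated best with its own number. Whether the numbers mark pairs is not known from the labels. With transcript length, CPM per kb rose for Ets1, Ets2, Spi1 and Elf1. Cebpa and Cebpe rest on 85 to 270 counts per library, and no test of depth was run.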

Other observations

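Of 20 tested C/EBP-beta and -delta targets, 6 had an unadjusted p under 0.05, all higher on average in the knockout, beside 5.99% of all tested genes in either direction. They were singled out after their values were seen, and none passed over all genes (edgeR adjusted p from 0.54 to 0.83). Nos2, which makes nitric oxide, was at 169 ± 36 CPM in wild-type libraries and 242 ± 10 CPM in knockout libraries, and Saa3, an acute-phase gene, at 394 ± 84 and 542.5 ± 50.1 CPM (SD, n = 3 each). Il6 was at 4.56 ± 1.08 and 9.49 ± 3.04 CPM, Il10 at 34.95 ± 1.7 and 48.1 ± 11.3 CPM, Orm1 at 6.99 ± 1.59 and 10.05 ± 1.69 CPM, and Arg1, an arginase gene, at 11.1 ± 7.4 and 48.7 ± 38.9 CPM. The groups of Il10 and Arg1 overlapped, and Arg1 was at 19.0, 92.7 and 34.4 CPM in knockout replicates 1, 2 and 3. In sum, monocyte and macrophage markers were likewise higher in the knockout libraries, at 712 to 742 against 593 to 640 CPM. Of the 15 tested, 2 went the other way, and the part of these cells in these values was not tested.

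Of the 15 C/EBP-epsilon targets and specific or gelatinase granule genes, 4 had an unadjusted p under 0.05 in mixed directions. The share over all tested genes was 5.99%. These 4 were again singled out after their values were seen, and none was called over all genes (edgeR adjusted p from 0.48 to 0.79). The granule and surface genes Olfm4 (49.4 ± 8.6 and 31.2 ± 5.2 CPM), Chil3 (92.9 ± 10.5 and 48.6 ± 30.1 CPM) and Cd177 (158 ± 24 and 111 ± 30 CPM) were lower on average in the knockout. Cybb, an NADPH oxidase subunit gene, was at 101 ± 28 and 140.3 ± 10.6 CPM.

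Of 14 tested ETS genes outside the members, 2 had an unadjusted p under 0.05 (edgeR), beside 5.99% of all tested genes. They too were singled out after their values were seen, and neither was called over all genes. Elk3, an ETS repressor, was at 10.5 ± 1.0 and 7.22 ± 1.62 CPM (edgeR adjusted p = 0.79). Spic, a relative of Spi1 known from macrophages, was at 0.11 ± 0.10 and 0.61 ± 0.13 CPM (edgeR adjusted p = 0.78). Its libraries ranged from 0 to 0.74 CPM, so it rests on few reads.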
